A study of Mus musculus with 21 samples.

Results

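The genes described here carry glucose into the cell, break it down to pyruvate, export lactate, or control the entry of pyruvate into the mitochondrion. They are 37 genes listed by symbol, with no threshold on a measured value, out of 23250 genes in the deposited table. Earlier results of these data were known when they were chosen. All 37 were found, as 38 table rows, because Aldoa stands there under 2 Ensembl IDs. Of the 13468 genes with enough counts to be tested, 36 are members of this set. Pdk4 and the second Aldoa ID did not pass the filter on low counts.

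The cells were macrophages grown from the bone marrow of mice on a C57BL/6J background, and their RNA was sequenced in 21 libraries. The marrow had been cultured for 7 days with 2.5% supernatant of a cell line that secretes GM-CSF, a cytokine that drives marrow precursors towards macrophage-like and dendritic-like cells. The series describes the macrophages given FcMR as deficient in the mannose receptor, the product of Mrc1. The allele, and the genotype of the other groups, are not given in the sources used here. Mrc1 had 0 to 11 counts over all 21 libraries and did not pass the filter on low counts. FcMR is a recombinant fusion of the extracellular region of the mannose receptor with the Fc region of human IgG1. Of the 7 groups, each of 3 libraries, 1 was left untreated (0 h), 3 received FcMR and 3 received the isotype control, in each case for 4, 12 or 24 h. There were no untreated cells at the later times, so a difference between isotype and untreated cells holds the effects of the isotype control and of the time in culture together, and these cannot be told apart. The labels do not say whether replicate libraries came from separate mice or cultures, so p-values measure the spread between these libraries, which may be technical. In bulk RNA, fewer cells of a type and less RNA per cell cannot be told apart.

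Glucose enters myeloid cells mainly through GLUT1, encoded by Slc2a1, and is trapped in the cell by hexokinases. Phosphofructokinase commits it to glycolysis, and PFKFB enzymes set the level of fructose-2,6-bisphosphate, the strongest activator of phosphofructokinase. The lower enzymes turn triose phosphates into pyruvate, which is either reduced to lactate by lactate dehydrogenase and exported by monocarboxylate transporters, or carried into the mitochondrion by MPC1 and MPC2 and oxidised by the pyruvate dehydrogenase complex. Pyruvate dehydrogenase kinases switch that complex off. Macrophages stimulated by microbial products are known for a high rate of glycolysis and lactate release.

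Libraries held 5532225 to 66729533 counts. All 9 markers of macrophages and monocytes were detected in every group. Levels are given as CPM, counts relative to the TMM-scaled size of the library, except for the marker sums of this paragraph. Those are CPM of the library total, with no TMM scaling. TMM factors at 4 h were 0.832 to 0.852 in FcMR and 0.942 to 1 in isotype libraries, so 4 h marker sums would compare differently after scaling. A list of 8 neutrophil and precursor markers summed to 1568.8 to 1766.4 CPM in untreated libraries. At 4 h it summed to 952.1 to 1357 in isotype and 825 to 1001.6 in FcMR libraries, and at 24 h to 192.1 to 232.7 and 210.3 to 238. Their sums were thus lower at later times in both treatments, and the part of this in the comparisons with untreated cells was not tested. Fibroblast markers summed to 8.1 to 16.1 CPM in FcMR libraries of 12 and 24 h and to at most 5.03 elsewhere. Most of this was Pdgfrb, with means of 11.1 in FcMR and 1.61 in isotype libraries at 12 h and 5.36 and 0.198 at 24 h. Dcn was at 3.08 and 0.105 at 24 h. Col1a1 was at 1.08 and 0.629 at 12 h and 0.701 and 0.616 at 24 h, and Col1a2 and Col3a1 had at most 3 and 6 counts in any library. The part of these markers in the FcMR differences was not tested. The macrophage markers summed to 27638.2 to 29894.3 CPM in FcMR and 34068.8 to 38432.1 in isotype libraries at 24 h, and mast cell and basophil markers to 24.1 to 29 and 14.3 to 18. The latter difference lay mainly in Kit, with means of 18.4 in FcMR and 9 in isotype libraries. Mcpt8 was at 4.48 and 2.81, Cpa3 at 3.23 and 3.08, and Ms4a2 at 1.03 and 0.894. Most of the macrophage sum was Lyz2, with means of 22513.3 and 29947.7. The other macrophage markers were split at 24 h. Means of Itgam, Cd68, Fcgr1 and Mertk were lower with FcMR. Those of Adgre1 (1563 against 889.2), Cd14 (855.8 against 191.7), Csf1r and Ptprc were higher, the last 2 slightly. At 4 h the macrophage sums were 24989.8 to 25849 and 26759.1 to 32375, and at 12 h they were 20407.7 to 24420.1 and 24182.4 to 26715.8. Dendritic cell markers summed to 4001.9 to 4354 CPM in untreated libraries and to 2170.7 to 3505.9 in all treated ones, and mast cell markers to 47.6 to 50.6 and 12.8 to 37.6. The dendritic cell markers were split. Means of H2-Ab1 (2494.4 untreated, 696.3 to 1445 treated), Itgax, Zbtb46 and Cd209a were lower in every treated group. Those of Ccr7 (276.3 and 295.3 to 696.7) and Flt3 (2.95 and 7.33 to 29.2) were higher in every treated group. Ciita and Xcr1 went both ways. T, B and NK cell markers summed to 2.36 to 6.97 and erythroid markers to 0 to 21.1 over all libraries. The part of these differences in the results was not tested. GC-rich transcripts took unequal parts of the counts even among replicates. This is given here as the GC tilt of a library, the mean log2 level (centred over the libraries) of the 10% of genes with a transcript GC content of 57.7% or more, less the mean of the 10% with 41.2% or less. It was 0.804, 0.037 and 0.44 in untreated replicates 1 to 3. At 4 h it was −0.836, −1.62 and 0.636 in isotype replicates 1 to 3, and −0.378, −0.162 and −0.5 in the FcMR libraries. At 12 h it was −0.738, 0.739 and 0.825 in FcMR and 0.596 to 0.838 in isotype libraries. At 24 h it was −0.374, −1.32 and 0.413 in FcMR and −0.102 to −0.0471 in isotype libraries. Isotype 4 h replicate 3 and FcMR 12 h replicate 1 stand in each other's place in the order of library numbers in the titles, and are the libraries that stand apart in tilt within their groups. The transcripts of the glycolytic genes have a median GC content of 52.9% against 49.5% for all genes tested. Differences of the members between FcMR and isotype are therefore given beside those of a fit with GC-dependent offsets wherever that fit changed a call.

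Promoter sequences are shown for 4 members whose levels differed between FcMR and isotype libraries, chosen after their values were seen: Hk2 and Pgk1, which were higher with FcMR, and Pdk1 and Ldhb, which were lower. Each line gives the 250 bases before the RefSeq start site in build GRCm38.p6, 5′ to 3′ on the gene's strand. Capitals mark ACGTG on either strand, the core of the hypoxia response element to which HIF transcription factors bind. The windows are chr6:82774455-82774704 on the minus strand for Hk2, chrX:106186850-106187099 on the plus strand for Pgk1, chr2:71872974-71873223 on the plus strand for Pdk1, and chr6:142507958-142508207 on the minus strand for Ldhb.
Hk2: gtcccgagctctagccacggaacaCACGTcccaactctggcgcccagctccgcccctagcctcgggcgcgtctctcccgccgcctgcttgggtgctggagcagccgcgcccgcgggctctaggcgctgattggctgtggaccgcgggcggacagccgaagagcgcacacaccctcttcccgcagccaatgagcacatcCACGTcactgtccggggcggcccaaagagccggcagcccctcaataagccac
Pgk1: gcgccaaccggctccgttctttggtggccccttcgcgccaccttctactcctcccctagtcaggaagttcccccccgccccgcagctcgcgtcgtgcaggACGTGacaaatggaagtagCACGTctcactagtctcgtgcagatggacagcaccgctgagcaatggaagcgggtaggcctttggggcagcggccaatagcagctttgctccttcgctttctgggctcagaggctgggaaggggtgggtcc
Pdk1: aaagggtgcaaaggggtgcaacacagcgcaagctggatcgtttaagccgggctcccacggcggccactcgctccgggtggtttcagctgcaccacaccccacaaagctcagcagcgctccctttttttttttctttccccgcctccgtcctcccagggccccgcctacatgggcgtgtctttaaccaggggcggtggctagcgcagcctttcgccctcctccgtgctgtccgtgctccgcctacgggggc
Ldhb: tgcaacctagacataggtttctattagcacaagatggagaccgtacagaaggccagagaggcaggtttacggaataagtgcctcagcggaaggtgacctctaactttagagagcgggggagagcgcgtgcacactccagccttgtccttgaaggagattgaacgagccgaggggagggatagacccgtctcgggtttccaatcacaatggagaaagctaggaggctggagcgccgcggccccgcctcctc
The Hk2 and Pgk1 windows each held 2 ACGTG matches, and the Pdk1 and Ldhb windows held none. Over all members, 36 of the 37 symbols matched the RefSeq promoter table, all but Slc2a3, and a gene counted as holding a motif when any of its windows did. ACGTG on either strand was found in 16 of them, 44.4%, against 18.5% of the 27025 genes in the table. CACGTG, the E box, in which every match also holds ACGTG, was in 16.7% of members and 6.86% of all genes. GGGCGG on either strand, the GC box, was in 66.7% against 35.4%, and the kappaB consensus in 11.1% against 8.23%. The table also holds noncoding genes, and members were not matched to genes of a similar promoter composition, so these shares are a description. The 4 windows shown do not stand for a rule: Pfkfb2, lower with FcMR at 4 h, held ACGTG in 2 of its 3 windows, and Hk1 and Pfkp, higher at 4 h, held none. The other members with a match were Slc2a1, Hk3, Pfkm, Aldoa, Pfkfb3, Pgam1, Pkm, Ldha, Slc16a1, Slc16a3, Pdk2, Pdk3 and Pdhb.

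The question of the study was what soluble mannose receptor changes in macrophages, and the comparison of FcMR with the isotype protein at the same time addresses it. At 4 h, 6 of the 36 members tested differed (edgeR quasi-likelihood test, Benjamini-Hochberg adjusted p under 0.05 over all 13468 genes). The hexokinases Hk1 and Hk2 and the phosphofructokinase genes Pfkm and Pfkp rose, by 1.4 to 2.03 times. Pfkfb2 and Bpgm fell. The background over all genes tested was 8.62% higher and 9.13% lower, against 4 and 2 of 36 members. At 12 h, 4 members fell (Ldhb, Aldoc, Pfkfb4 and Pdk1) and none rose, against a background of 8.61% higher and 7.49% lower over all genes. At 24 h, Pfkfb3, Pgk1 and Pdk3 rose and Ldhb, Pdk1 and Pdha1 fell, where 11.4% of all genes were called higher and 9.44% lower. Medians of the members' log2 fold changes at 4, 12 and 24 h were 0.19, −0.12 and 0.01, beside −0.073, −0.017 and 0.006 over all genes tested.

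**Figure D1:**
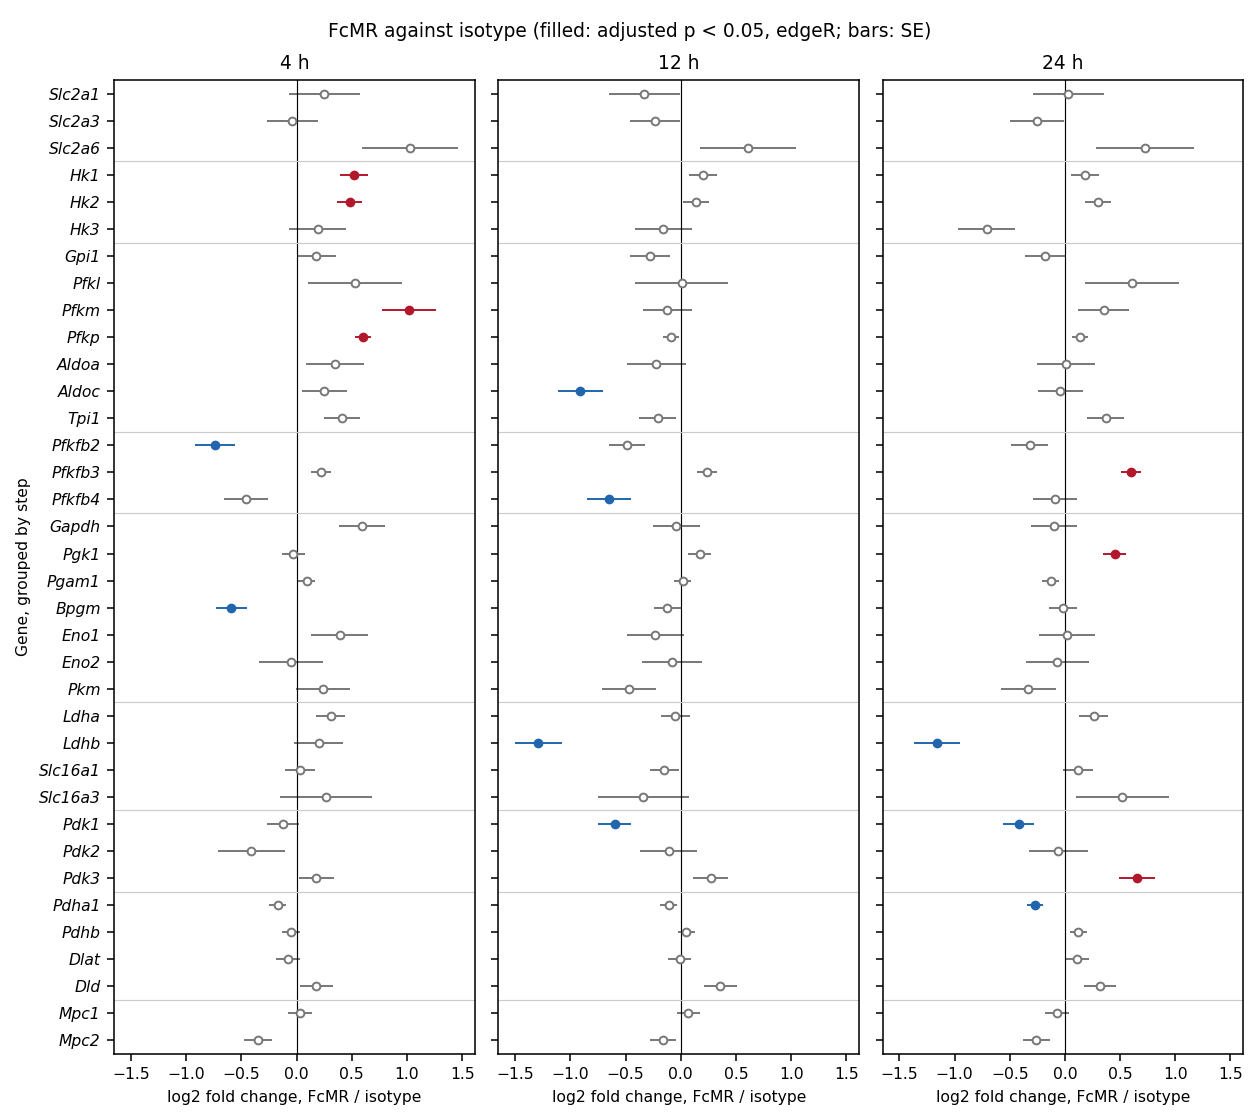
Log2 fold change of FcMR against isotype (x axis) for the 36 members tested (y axis, grouped by step), at 4, 12 and 24 h. Bars are standard errors, and filled points passed the edgeR threshold: 6 members at 4 h, 4 at 12 h and 6 at 24 h, red for higher and blue for lower with FcMR.

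Glucose transporters were led by Slc2a6 and Slc2a1. Slc2a6 encodes GLUT6, a transporter of intracellular membranes that is abundant in leukocytes, and it was added to the members described in full after its values were seen. Per kilobase of transcript, untreated cells held 53.6 ± 11.2 CPM of Slc2a6 (SD, n = 3), 32.7 ± 4.09 of Slc2a1 and 3.64 ± 0.403 of Slc2a3, which encodes GLUT3. Slc2a6 (ENSMUSG00000036067.12, chromosome 2, 27021363 to 27027998, GRCm38) was at 556.9, 640.9 and 521.2 CPM in the FcMR libraries of 4 h and at 226.2, 105.2 and 510.9 in the isotype libraries. All the FcMR libraries were higher, but isotype replicate 3 lay close below them, and the log2 fold change of 1.03 (SE 0.437) had an adjusted p of 0.118. At 12 h the FcMR libraries were at 227.8, 577 and 530.7 CPM and the isotype libraries at 282.3, 297.2 and 292.9. At 24 h they were at 96.9, 49 and 139.1 CPM against 56.5, 54.7 and 59.2. In both cases the FcMR library with the most negative GC tilt was the one below the isotype libraries. With GC offsets Slc2a6 was higher with FcMR in every library at each time, by 1.07 (SE 0.146), 0.81 (SE 0.145) and 0.94 (SE 0.152) on the log2 scale, with adjusted p of 1.73e-05, 0.000277 and 7.85e-05. At 4 h without isotype replicate 3 and with no GC offsets, the log2 fold change was 1.8 with an adjusted p of 0.00481. The isotype libraries left in that fit had tilts of −0.836 and −1.62, below the −0.5 to −0.162 of the FcMR libraries. The part of tilt in that larger value was not tested.

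The share of Slc2a6 among the transporters within a library needs no scaling between libraries, though it can still move with GC tilt because the transcript is richer in GC (58.7%) than those of Slc2a1 (54%) and Slc2a3 (49.4%). Per transcript length, Slc2a6 made up 83.3, 84.3 and 82.1% of the transcripts of these 3 genes in the FcMR libraries of 4 h and 71.8, 66.5 and 77.5% in the isotype libraries. At 12 h its share was 77.3, 82.8 and 80.9% with FcMR and 70.7, 69.2 and 67.2% with isotype. At 24 h it was 48.4, 42.2 and 46.6% with FcMR and 35, 35.2 and 33.4% with isotype. The groups did not overlap at any of the 3 times, FcMR 24 h replicate 2 included, whose tilt was the lowest of its group. With 3 libraries against 3 an exact permutation test could not go below a two-sided p of 0.1, and none is given.

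Slc2a1 (ENSMUSG00000028645.11, chromosome 4, 119108711 to 119137983) did not differ beyond the spread of the libraries. It was at 166.2, 178.4 and 167.9 CPM with FcMR and 132.1, 74.9 and 222.7 with isotype at 4 h, at 99.6, 180.5 and 188.9 against 175.3, 199.5 and 215.2 at 12 h, and at 155.1, 100.5 and 240.4 against 157.8, 151.6 and 176.7 at 24 h. The log2 fold changes were 0.25, −0.33 and 0.03, with standard errors of 0.32 to 0.322, and the libraries overlapped at each time. Slc2a3 stood at 2.09 to 7.04 CPM in all treated libraries, with log2 fold changes of −0.04 to −0.25 and no call.

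Hexokinases phosphorylate glucose, HK1 and HK2 at the outer mitochondrial membrane and HK3 mainly elsewhere in the cell. Hk2 (ENSMUSG00000000628.10, chromosome 6, 82725025 to 82774454), the inducible isozyme, was at 159.1, 182 and 169.6 CPM in the FcMR libraries of 4 h and at 120.9, 105.3 and 138.8 in the isotype libraries. No FcMR library fell into the isotype range, and the log2 fold change was 0.48 (SE 0.117, adjusted p 0.00737). Hk2 was at 84.5, 97.1 and 107.9 CPM against 84, 87.9 and 90.1 at 12 h and at 98.3, 75.3 and 101.7 against 72.5, 72.8 and 78.7 at 24 h, with log2 fold changes of 0.14 and 0.3 that were not called. Hk1 (ENSMUSG00000037012.18, chromosome 10, 62268855 to 62379908), the constitutive isozyme, was at 67.9, 67.5 and 63.9 CPM against 46.1, 40.9 and 51.6 at 4 h, a log2 fold change of 0.52 (SE 0.127, adjusted p 0.00762). At 12 h it was at 59.4, 81.2 and 82.6 CPM against 61.2, 65 and 68.3, and at 24 h at 70.3, 60.6 and 76.9 against 61.3, 61 and 60.9, where the libraries overlapped. With GC offsets both genes were called higher at all 3 times, Hk2 by 0.44, 0.2 and 0.37 and Hk1 by 0.35, 0.38 and 0.41 on the log2 scale, the Hk2 call at 12 h with an adjusted p of 0.0491. Hk1 overlaps the antisense gene Hk1os and Hk2 the antisense gene Gm17034. The labels name a TruSeq RNA v2 kit and no strand setting of the counting, so reads of such pairs may not have been told apart. The same limit holds for Slc2a1, Hk3, Gpi1, Pfkm, Pfkp, Pfkfb2, Pfkfb3, Gapdh, Tpi1, Aldoa, Pdha1, Pdk2 and Mpc1, which also overlap a gene on the opposite strand.

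Hk3, the most abundant of the 3 hexokinases per transcript length, was lower with FcMR at 24 h, and was likewise added after its values were seen. It was at 172.8, 118.1 and 216.5 CPM with FcMR and 276.6, 272.5 and 277.7 with isotype, all FcMR libraries lower, with a log2 fold change of −0.71 (SE 0.261) and an adjusted p of 0.0657. With GC offsets this was −0.51 (SE 0.0626) and was called, with an adjusted p of 3.49e-06. The within-group SD of Hk3 on the log2 scale, the root of the mean variance of the groups, was 0.352 without and 0.0689 with those offsets. At 4 and 12 h its log2 fold changes were 0.19 and −0.16 and the libraries overlapped. Per transcript length, Hk3 was 75.8, 75.5 and 75.2% of the 3 hexokinases in the isotype libraries of 24 h and 61, 56.9 and 64.9% in the FcMR libraries.

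In the upper part of glycolysis, phosphofructokinase transcripts changed at 4 h. Pfkp (ENSMUSG00000021196.14, chromosome 13, 6579768 to 6648777), the platelet-type subunit and the most abundant of the 3 in these cells, was at 471.8, 507.4 and 462.8 CPM with FcMR and at 338.5, 296.7 and 316.3 with isotype. The groups were far apart relative to their spread, with a log2 fold change of 0.6 (SE 0.0725, adjusted p 1.61e-05). At 12 h Pfkp was at 218.3, 231.9 and 216.5 CPM against 231.5, 246.2 and 230.3, and at 24 h at 192.5, 171.7 and 192.5 against 166.6, 168 and 171.6, with log2 fold changes of −0.09 and 0.14. Pfkp was called at 4 h alone, and the joint test that its FcMR effect differed over the 3 times gave an adjusted p of 0.000697. Pfkm (ENSMUSG00000033065.13, chromosome 15, 98092589 to 98132451), the muscle-type subunit, was scarce, at 6.87, 8.05 and 6.15 CPM against 3.88, 1.98 and 4.4 at 4 h, a log2 fold change of 1.02 (SE 0.243, adjusted p 0.00656). Fitted on the 6 FcMR and isotype libraries of 4 h alone, the Pfkm and Hk2 calls were lost (adjusted p 0.09 and 0.0654), as were those of Pfkfb2 and Bpgm (adjusted p 0.0871 and 0.143), and those of Pfkp and Hk1 were kept. At 12 and 24 h its log2 fold changes were −0.12 and 0.35 and were not called, though the latter was with GC offsets (0.51, adjusted p 0.0317). Pfkl, the liver-type subunit, spread from 32.1 to 142 CPM among the isotype libraries of 4 h alone, and its log2 fold changes of 0.53, 0.01 and 0.61 had standard errors of 0.421 to 0.428. The 24 h difference of Pfkl was called with GC offsets, at 0.75 (SE 0.195, adjusted p 0.00579).

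Of the other upper enzymes, Aldoc fell at 12 h. Aldoc (ENSMUSG00000017390.15, chromosome 11, 78322968 to 78327781), an aldolase, was at 14.5, 17.3 and 18.2 CPM with FcMR and at 34.2, 30.5 and 29.3 with isotype, with no overlap and a log2 fold change of −0.91 (SE 0.204, adjusted p 0.00395), not called with the authors' factors (adjusted p 0.0728). At 4 h it was at 45.3, 40.8 and 33 CPM against 32.5, 28.9 and 38.8, and at 24 h at 37.5, 27.1 and 55.3 against 42, 39.6 and 41.1, overlapping in both, with log2 fold changes of 0.25 and −0.04. The joint test over the times gave an adjusted p of 0.0266. That call was lost with the authors' factors (adjusted p 0.134), and (adjusted p up to 0.0663) without FcMR 4 h replicate 1 or 2, isotype 4 h replicate 1 or 2, FcMR 12 h replicate 1 or isotype 12 h replicate 1. The major aldolase Aldoa, together with Gpi1 and Tpi1, was not called at any time, with log2 fold changes of −0.28 to 0.41. With GC offsets Aldoa and Tpi1 were called higher at 4 h, by 0.25 and 0.32, and Tpi1 also at 24 h, by 0.46.

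The PFKFB enzymes, which make and remove fructose-2,6-bisphosphate, diverged. Pfkfb3 (ENSMUSG00000026773.19, chromosome 2, 11471433 to 11554077), the isozyme with the strongest bias towards synthesis, was at 577, 653.1 and 527.4 CPM in the FcMR libraries of 24 h and at 366.8, 419.4 and 374.2 in the isotype libraries. Every FcMR library was above the isotype range, and the log2 fold change was 0.6 (SE 0.0898, adjusted p 7.98e-05). At 4 h it was at 218.4, 261.5 and 258.1 CPM against 219.3, 207.8 and 208.4, and at 12 h at 493, 476.8 and 459 against 391.1, 438.6 and 378.7, with log2 fold changes of 0.22 and 0.24 and adjusted p of 0.113 and 0.0797. The 12 h difference of Pfkfb3 was called with GC offsets (0.26, adjusted p 0.0362). Pfkfb2 (ENSMUSG00000026409.14, chromosome 1, 130689182 to 130729253) was at 4.67, 4.93 and 3.35 CPM against 7.32, 8.48 and 6.6 at 4 h, a log2 fold change of −0.74 (SE 0.18, adjusted p 0.00782). It was not called without FcMR 4 h replicate 3 (adjusted p 0.0613), without isotype 4 h replicate 2 (0.0559), with the authors' factors (0.075) or with no filter on low counts (0.0598). It lay below the isotype libraries at the later times too, with log2 fold changes of −0.49 (adjusted p 0.0504) and −0.32 (adjusted p 0.204), the first of them called with GC offsets (−0.54, adjusted p 0.0126). Pfkfb4 (ENSMUSG00000025648.17, chromosome 9, 108991778 to 109032228) was at 23.9, 26.8 and 34 CPM against 46, 39.6 and 47 at 12 h, a log2 fold change of −0.65 (SE 0.196, adjusted p 0.0306). That call was lost without FcMR 12 h replicate 1 (log2 fold change −0.54, adjusted p 0.126) or 2, or isotype 12 h replicate 1 or 3. At 4 h Pfkfb4 was at 27.6, 27.8 and 23.5 CPM against 35.3, 28.3 and 44.6, called only with GC offsets (−0.57, adjusted p 0.000903), and at 24 h at 43.8, 32.7 and 64.4 against 48.4, 52.3 and 48.8. Within a library, the share of Pfkfb3 among the PFKFB transcripts, per length, was 83.5 to 87.8% with FcMR and 75.2 to 81.2% with isotype at 4 h, and 89.3 to 92.3% against 83.3 to 86.8% at 12 h, with no overlap. At 24 h it was 84 to 92% against 82.2 to 83.2%.

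**Figure D2:**
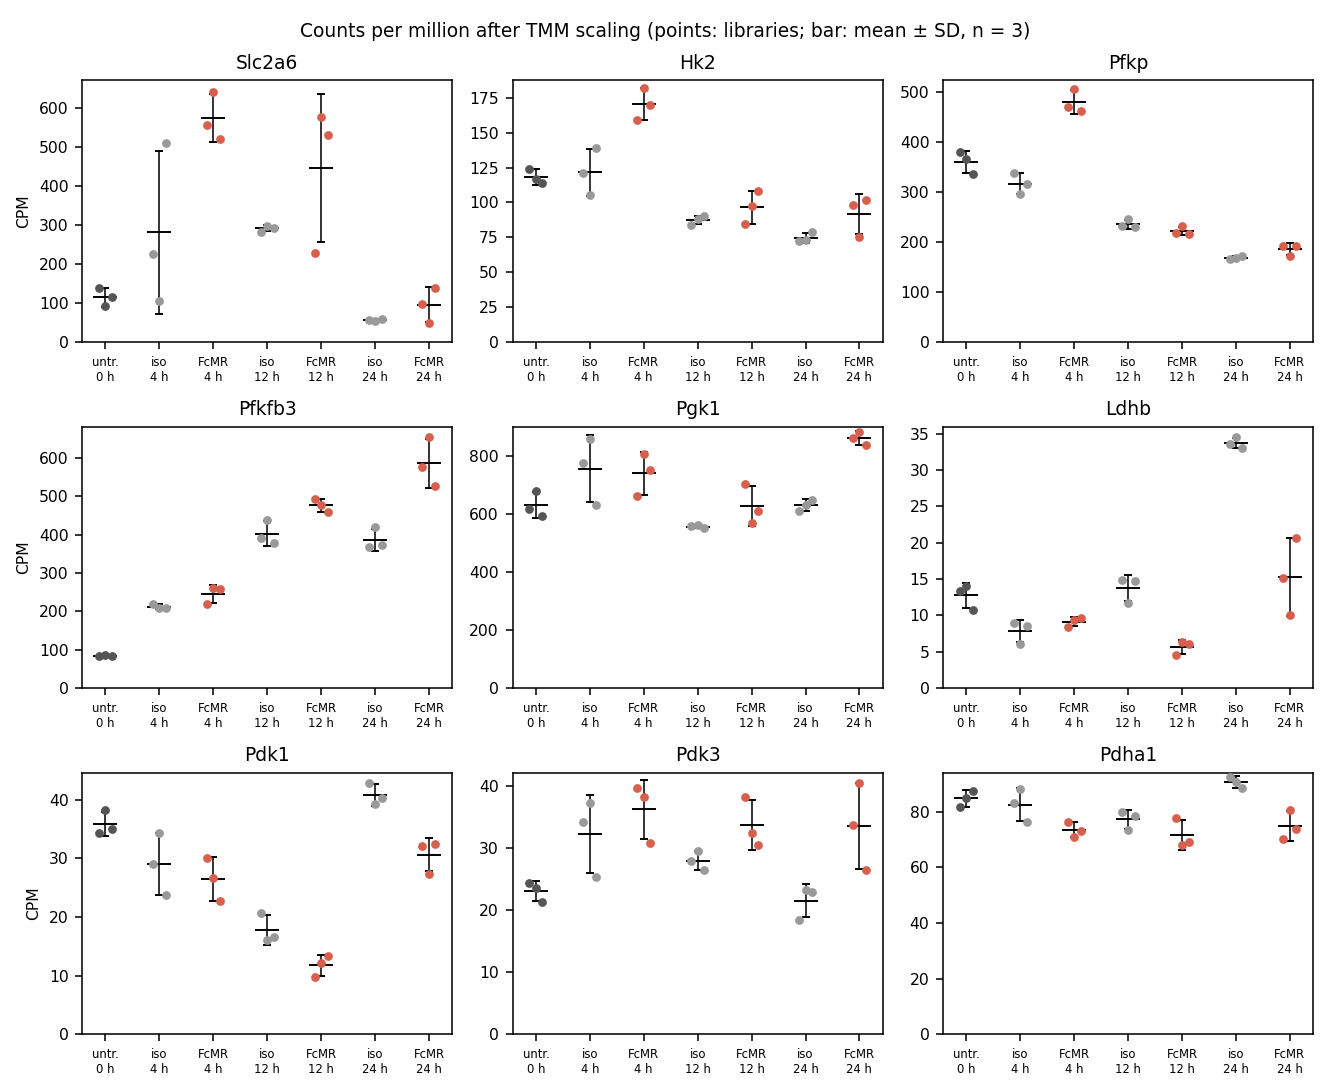
CPM after TMM scaling (y axis) of 9 members in the 7 groups (x axis). Points are libraries and bars are mean ± SD of 3. Pfkp stands out at 4 h with FcMR (462.8 to 507.4 CPM), Pfkfb3 and Pgk1 at 24 h, and Ldhb rises to 33.1 to 34.5 CPM in isotype libraries of 24 h but to 10 to 20.7 in FcMR libraries.

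Among the enzymes from glyceraldehyde-3-phosphate to pyruvate, Pgk1 rose at 24 h. Pgk1 (ENSMUSG00000062070.12, chromosome X, 106187100 to 106203699), phosphoglycerate kinase, was at 863.7, 885.1 and 837.4 CPM with FcMR and at 611.1, 633 and 650.3 with isotype, with a log2 fold change of 0.45 (SE 0.105, adjusted p 0.00425). At 12 h it was at 705.2, 571.2 and 610.6 CPM against 558.8, 562.6 and 550.9, and at 4 h at 662.8, 808.6 and 752.8 against 777.8, 861.3 and 632.7, where the libraries overlapped. Its near-copy Pgk1-rs7 held 267 to 6268 counts per library, so the split of reads between them is uncertain. The same holds for Pgam1, beside Pgam1-ps2 with up to 3167 counts. Bpgm (ENSMUSG00000038871.5, chromosome 6, 34476207 to 34505613), which makes 2,3-bisphosphoglycerate, was at 3.61, 4.1 and 3.91 CPM against 5.31, 5.05 and 7.07 at 4 h, a log2 fold change of −0.59 (SE 0.14, adjusted p 0.00636). Without isotype 4 h replicate 3 it was −0.41 with an adjusted p of 0.157, and it was not called by DESeq2 (adjusted p 0.0545) or with no filter on low counts (0.0826). At 12 and 24 h Bpgm differed by −0.12 and −0.02.

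Gapdh (ENSMUSG00000057666.18, chromosome 6, 125161715 to 125166467), glyceraldehyde-3-phosphate dehydrogenase and a common reference gene, varied among replicates. It was at 2137, 2007.1 and 1636.5 CPM with FcMR and 1363.9, 902.7 and 1584.7 with isotype at 4 h, at 1084.8, 1258.6 and 1337.3 against 1358, 1192.6 and 1242.6 at 12 h, and at 1589.2, 817.8 and 1607.4 against 1408.2, 1413.5 and 1490 at 24 h. At 4 h all FcMR libraries were higher, with a log2 fold change of 0.59 (SE 0.21) and an adjusted p of 0.0642, and the value with GC offsets was 0.43 and was called (adjusted p 0.0414). At 12 and 24 h it differed by −0.04 and −0.1. Pkm (ENSMUSG00000032294.17, chromosome 9, 59656368 to 59679375), pyruvate kinase, was at 1166.9, 1239.8 and 1074.4 CPM against 966.5, 622.2 and 1355.9 at 4 h, at 862.2, 1324.8 and 1371.4 against 1673, 1559.5 and 1708.8 at 12 h, and at 1408.7, 914.1 and 1916.3 against 1764.8, 1703.7 and 1875 at 24 h. All FcMR libraries of 12 h were lower, with a log2 fold change of −0.47 (SE 0.248, adjusted p 0.243), which with GC offsets was −0.25 and was called (adjusted p 0.0352). Gapdh and Pkm were each lowest, at 4 and 24 h, in the library with the lowest tilt (isotype 4 h replicate 2 and FcMR 24 h replicate 2). Eno1, Eno2 and Pgam1 were not called at any time, with log2 fold changes of −0.23 to 0.39. With GC offsets Eno1 was called higher at 4 h, by 0.27 (adjusted p 0.0307). Together, 8 core enzymes (Aldoa, Tpi1, Gapdh, Pgk1, Pgam1, Eno1, Pkm and Ldha) took 0.636 ± 0.0406% of all counts (SD, n = 3) in FcMR and 0.592 ± 0.109% in isotype libraries at 4 h, 0.59 ± 0.0672% and 0.694 ± 0.0287% at 12 h, and 0.727 ± 0.186% and 0.75 ± 0.0158% at 24 h. The ranges overlapped at 4 and 24 h, and at 12 h the FcMR libraries (0.514 to 0.641%) lay below the isotype libraries (0.671 to 0.726%). In TMM-scaled CPM the same sums overlapped at 12 h, at 5173.9, 6385.8 and 6757.6 with FcMR and 7024.5, 6571.7 and 6925.2 with isotype.

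Lactate dehydrogenase showed the largest FcMR difference of the set, in its minor subunit. Ldhb (ENSMUSG00000030246.11, chromosome 6, 142490249 to 142507957) encodes the heart-type subunit, which favours the conversion of lactate to pyruvate. It was at 4.55, 6.37 and 6.12 CPM with FcMR and at 14.9, 11.7 and 14.8 with isotype at 12 h, a log2 fold change of −1.29 (SE 0.213, adjusted p 0.000277). At 24 h it was at 15.2, 10 and 20.7 CPM against 33.6, 34.5 and 33.1, a log2 fold change of −1.16 (SE 0.205, adjusted p 0.000415), with a wider spread among the FcMR libraries. At 4 h it was at 8.43, 9.33 and 9.69 CPM against 8.9, 6.13 and 8.57, where the libraries overlapped, and the joint test over the times gave an adjusted p of 0.00559. In isotype cells Ldhb was 2.64 times its untreated level at 24 h (10.8 to 14.1 CPM untreated), so the FcMR libraries of 24 h spanned the untreated range. Ldha (ENSMUSG00000063229.15, chromosome 7, 46841475 to 46855627), the dominant muscle-type subunit, was at 1005.5, 1176.2 and 1048.5 CPM against 837, 750.2 and 1022.2 at 4 h, at 642.9, 712 and 775 against 743.8, 719.5 and 745.5 at 12 h, and at 936.6, 709.7 and 1104.1 against 736.9, 790.1 and 770.2 at 24 h. None of these was called, and with GC offsets the differences of 0.27 at 4 h and 0.32 at 24 h were. Per transcript length, Ldhb was 1.92 to 2.55% of the 2 subunits in the FcMR libraries of 24 h against 5.64 to 5.98% in the isotype libraries, and 0.976 to 1.23% against 2.22 to 2.71% at 12 h.

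The lactate exporters did not change with FcMR beyond their spread. Slc16a3 (ENSMUSG00000025161.16, chromosome 11, 120948480 to 120960868) encodes MCT4, the exporter typical of glycolytic cells. It was at 92.9, 110.4 and 82.5 CPM with FcMR and 62.3, 35.9 and 138.3 with isotype at 4 h, at 32.5, 75.8 and 84.2 against 71.5, 83.8 and 88 at 12 h, and at 83.2, 45.4 and 131.3 against 53.1, 58.1 and 68.5 at 24 h. The libraries overlapped at every time, and the standard errors of 0.414 to 0.419 on the log2 scale were among the widest of the set. With GC offsets the 24 h difference was 0.67 (SE 0.201) and was called, with an adjusted p of 0.0152. Slc16a1, which encodes MCT1, differed by 0.03, −0.15 and 0.12 and was not called.

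**Figure D3:**
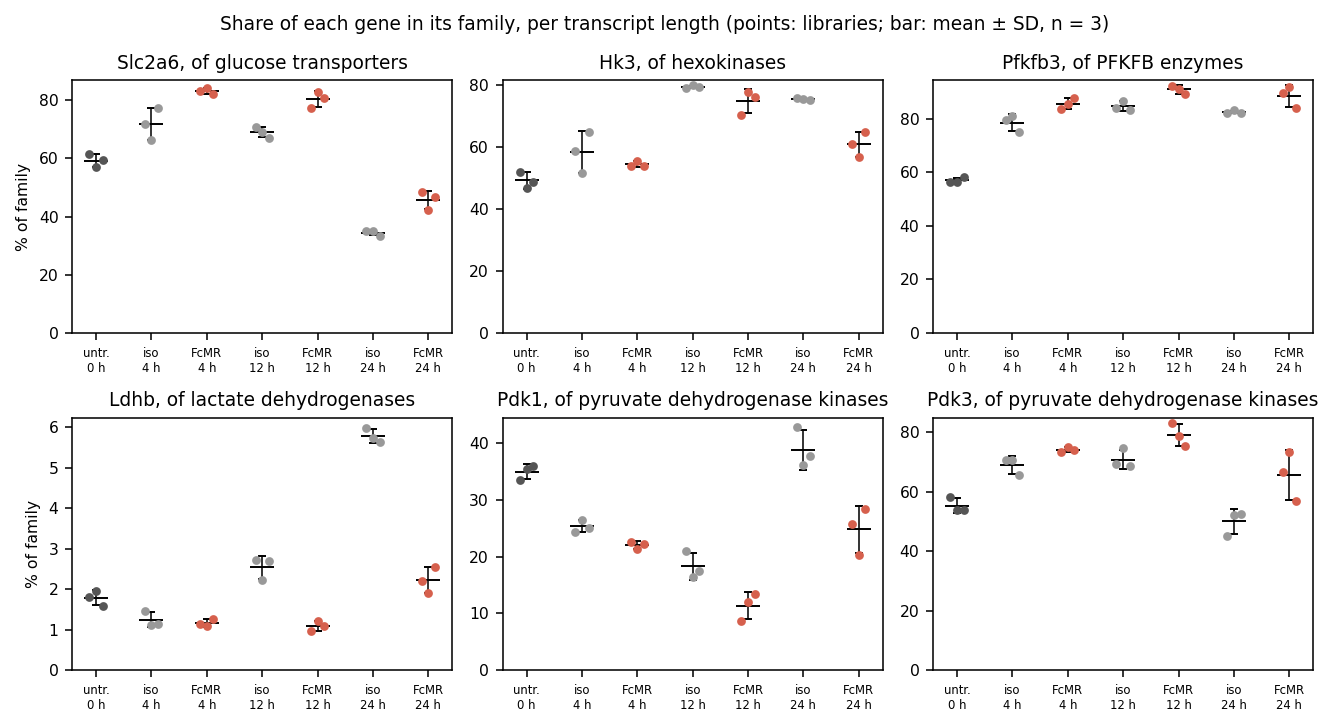
Share of a gene in the summed transcripts of its family within each library, per transcript length (y axis, percent), in the 7 groups (x axis), with points for libraries and bars for mean ± SD of 3. Slc2a6 shares of FcMR libraries lie above those of isotype libraries at each time, and Ldhb and Pdk1 shares lie below them at 12 and 24 h.

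Of the pyruvate dehydrogenase kinases, Pdk1 fell and Pdk3 rose with FcMR. Pdk1 (ENSMUSG00000006494.11, chromosome 2, 71873224 to 71903858), a pyruvate dehydrogenase kinase known as a hypoxia-inducible gene, was at 9.83, 12.1 and 13.3 CPM with FcMR and 20.7, 16 and 16.6 with isotype at 12 h, a log2 fold change of −0.6 (SE 0.146, adjusted p 0.00786). At 24 h it was at 32.1, 27.4 and 32.4 CPM against 42.9, 39.2 and 40.2, a log2 fold change of −0.42 (SE 0.142, adjusted p 0.0464). The groups did not overlap at either time, but the 24 h call was lost whichever of the 6 libraries was left out, with log2 fold changes of −0.45 to −0.33. Without FcMR 12 h replicate 1 the 12 h value was −0.49 with an adjusted p of 0.064, and without isotype 12 h replicate 1 it was −0.47 with an adjusted p of 0.0799. With the authors' factors neither Pdk1 difference was called (adjusted p 0.134 and 0.208). At 4 h Pdk1 was at 30.1, 26.6 and 22.7 CPM against 29, 34.3 and 23.8. Pdk3 (ENSMUSG00000035232.8, chromosome X, 93764607 to 93832201), the most abundant kinase of the family per transcript length, was at 33.8, 40.5 and 26.5 CPM against 18.5, 23.3 and 22.9 at 24 h, a log2 fold change of 0.65 (SE 0.163, adjusted p 0.00733). Leaving out FcMR 24 h replicate 2 or isotype 24 h replicate 1 ended that call (adjusted p up to 0.0646). Pdk3 was at 38.2, 32.4 and 30.5 CPM against 28, 29.6 and 26.5 at 12 h and at 39.8, 38.2 and 30.9 against 34.3, 37.3 and 25.3 at 4 h, with no call. Per transcript length, Pdk1 made up 36 to 42.7% of the kinase transcripts in the isotype libraries of 24 h and 20.3 to 28.4% in the FcMR libraries. Pdk2 was at 1.62 to 7.07 CPM and did not differ. Pdk4 (ENSMUSG00000019577.6, chromosome 6, 5483351 to 5496309), the kinase that rises in fasting, had 0 to 5 counts in every library. There 3 counts correspond to 0.045 to 0.542 CPM of the library total, so a difference was not detectable at this depth.

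Of the pyruvate dehydrogenase complex, the catalytic subunit fell slightly. Pdha1 (ENSMUSG00000031299.10, chromosome X, 160122209 to 160138413), the E1 alpha subunit that the kinases phosphorylate, was at 70.2, 80.6 and 73.9 CPM with FcMR and 92.6, 90.7 and 88.4 with isotype at 24 h, a log2 fold change of −0.27 (SE 0.0752, adjusted p 0.0139). It was at 76.3, 71.1 and 73.2 CPM against 83.3, 88 and 76.2 at 4 h and at 77.8, 68.1 and 69.2 against 80, 73.5 and 78.4 at 12 h, with log2 fold changes of −0.17 and −0.11 that were not called. With GC offsets the 12 h difference of Pdha1 was −0.17 and was called (adjusted p 0.0259). The 24 h call was kept in 2 of the 6 fits that leave out a library, over which its log2 fold change was −0.33 to −0.22, and was lost with the authors' factors (adjusted p 0.0721). Pdhb and Dlat, the E1 beta and E2 subunits, differed by −0.08 to 0.12 and were not called. Dld, the E3 subunit, differed by 0.18, 0.36 and 0.32 and was called with GC offsets at all 3 times, by 0.29, 0.27 and 0.24. The mitochondrial pyruvate carrier genes were not called: Mpc1 differed by −0.07 to 0.07, beside Mpc1-ps with up to 181 counts, and Mpc2 by −0.35, −0.16 and −0.26. Mpc2 was lower in every FcMR library of 4 h (17.3, 18.1 and 19.2 CPM against 22.7, 25.1 and 21.7), with an adjusted p of 0.0605.

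Offsets for transcript GC content, estimated in each library from a smooth over all genes, changed many of the members' calls. The median within-group SD of the members was 0.21 on the log2 scale without and 0.127 with the offsets, smaller for 26 of 36 members, beside 0.226 and 0.168 over all genes tested. With them, 14 members were called at 4 h (11 higher, 3 lower), 12 at 12 h (5 higher, 7 lower) and 16 at 24 h (12 higher, 4 lower). The calls over all genes grew too, to 13.5% higher and 15.7% lower at 4 h, 14% and 11.6% at 12 h, and 19.5% and 12.2% at 24 h. All 16 member calls made without the offsets at the 3 times were also made with them. Leaving out isotype 4 h replicate 3 with no GC offsets gave 12 calls at 4 h, adding Slc2a6, Pfkl, Tpi1, Gapdh, Eno1, Ldha and Mpc2 and losing Bpgm. Of the 14020 genes tested in that fit, 1614 were called higher and 1537 lower. The isotype libraries left in it had a lower GC tilt than every FcMR library of 4 h. The part of tilt in these calls was not tested. At 24 h the members called with the offsets only were Slc2a6, Hk1, Hk2, Hk3, Pfkl, Pfkm, Tpi1, Ldha, Slc16a3 and Dld.

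**Figure D4:**
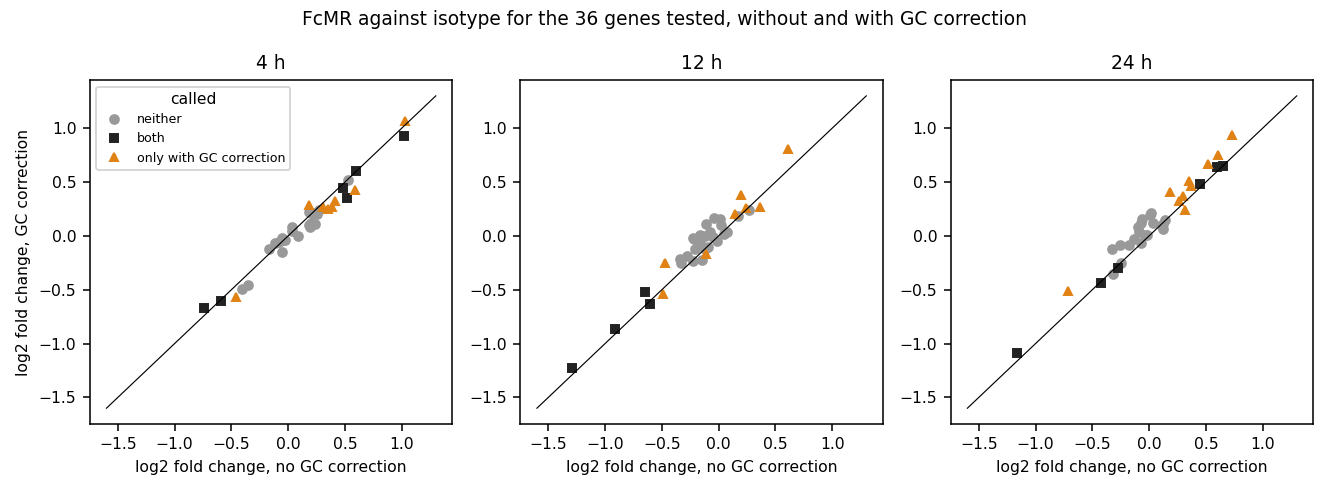
Log2 fold change of FcMR against isotype for the 36 members tested, without (x axis) and with (y axis) GC offsets, at 4, 12 and 24 h, with the line of equality. Marks give where a member was called: 14, 12 and 16 members were called with the offsets and 6, 4 and 6 without.

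Isotype libraries were also compared with untreated cells. At 4 h, 11 of 36 members differed (6 higher, 5 lower), against a background of 20.4% higher and 15.2% lower over all genes. At 12 h, 16 differed (8 higher, 8 lower), against 22% higher and 19.6% lower over all genes. At 24 h, 19 differed (11 higher, 8 lower), where 21.3% were called higher and 20.9% lower. With GC offsets 13 members were called higher and 8 lower at 4 h, beside 25.8% and 17.9% of all genes. At 12 h they were 10 and 11, beside 28% and 25%, and at 24 h 14 and 10, beside 28.3% and 25.9%. The fold changes below are without GC offsets unless stated. These comparisons share their untreated libraries, and each shares its isotype libraries with the FcMR comparison of that time. Pfkfb3 and Hk3 had the highest fold changes at 12 and 24 h. Pfkfb3 was at 84.9, 85.7 and 82.7 CPM in untreated cells and 2.51, 4.77 and 4.58 times as high at 4, 12 and 24 h (adjusted p 2.97e-09, 3.87e-12 and 6.63e-12). Hk3 was at 115.6, 84 and 89.6 CPM untreated and rose by 0.71, 2.01 and 1.52 on the log2 scale. Slc2a3 fell, from 13.9, 13.1 and 16.2 CPM by 1.53, 2.15 and 2.25 on the log2 scale. Slc16a1 fell by 1.15, 1.31 and 1.51, from 31.6, 36.4 and 38.4 CPM, and Slc16a3 fell by 1.18 at 24 h. Hk2 fell by 0.44 at 12 h and 0.66 at 24 h, Pfkp by 0.61 and 1.1, and Pdk1 by 1.01 at 12 h. Slc2a6 rose by 1.3 at 4 h and 1.34 at 12 h and at 24 h was at 54.7 to 59.2 CPM against 90.8 to 138.7 untreated, a difference of −1.01 that was not called (adjusted p 0.0773) but was with GC offsets (−0.64, adjusted p 0.00147). Within families, Slc2a6 was 59.3 ± 2.34% (SD, n = 3) of the transporter transcripts in untreated cells and 34.5 ± 0.943% at 24 h, and Hk3 was 49.3 ± 2.64% and 75.5 ± 0.303% of the hexokinase transcripts. Aldoa and Pkm had no stable direction at 4 h. Without GC offsets Aldoa differed by −0.21 and Pkm by −0.19, and with them by 0.22 and 0.31.

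**Figure D5:**
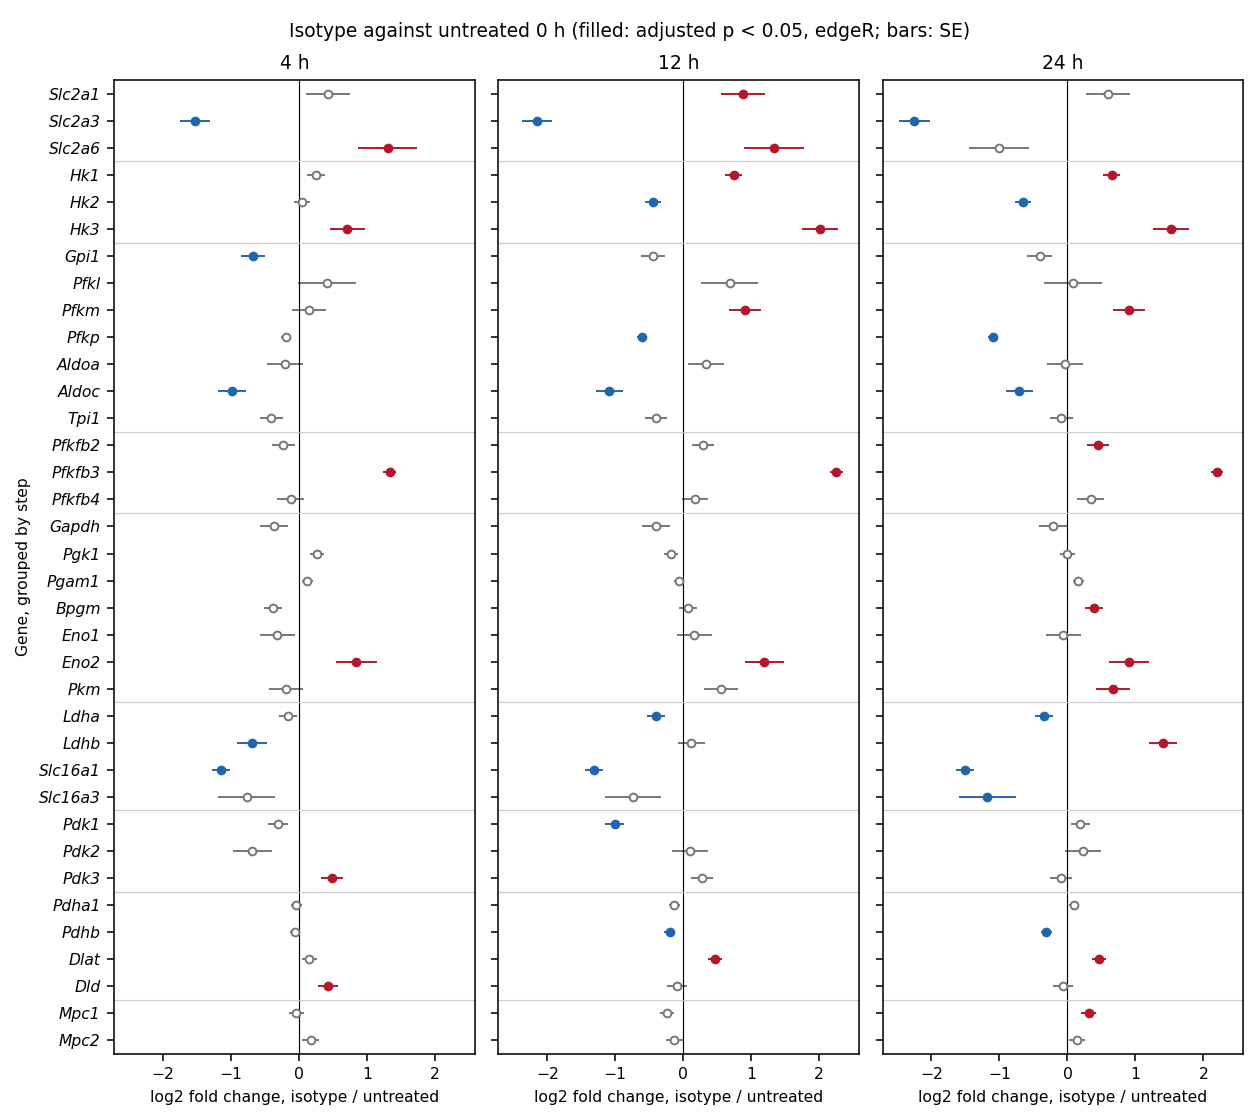
Log2 fold change of isotype against untreated 0 h cells (x axis) for the 36 members tested (y axis, grouped by step), at 4, 12 and 24 h. Bars are standard errors, and filled points passed the edgeR threshold: 11, 16 and 19 members, with Pfkfb3 and Hk3 highest at 12 and 24 h and Slc2a3 lowest at each time.

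Some members were called in both comparisons, which share the isotype libraries. Pfkfb3 rose in isotype cells and was higher again with FcMR at 24 h. Pdk1 fell in isotype cells at 12 h and was lower again with FcMR. Ldhb rose in isotype cells at 24 h and was lower with FcMR. The joint test that the FcMR effect differed over 4, 12 and 24 h called 3 of 36 members, Pfkp, Aldoc and Ldhb, where 11% of all genes were called.

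A list of 56 other genes of glucose metabolism was read in the same fit, of which 46 were tested. Their values were read in this main fit alone. Whether their calls hold with GC offsets, without single libraries or in the other settings was not tested. Of these, 9 differed between FcMR and isotype at 4 h (1 higher, 8 lower), 9 at 12 h (3 higher, 6 lower) and 14 at 24 h (8 higher, 6 lower). Over all genes tested, the shares called higher and lower were 8.62% and 9.13% at 4 h, 8.61% and 7.49% at 12 h, and 11.4% and 9.44% at 24 h, and the counts of the single lists below are to be read against these. Of 10 regulators, 3 were called at 4 h and 5 at each later time. Hif1a, which encodes the oxygen-regulated subunit of HIF, was at 297.5 ± 54.9 CPM (SD, n = 3) in FcMR and 184.6 ± 10.4 in isotype libraries at 12 h, and at 470.1 ± 92.6 against 199.9 ± 8.14 at 24 h, log2 fold changes of 0.69 (adjusted p 0.0025) and 1.23 (adjusted p 6.03e-06). Egln3, a HIF prolyl hydroxylase that is itself a HIF target, rose by 0.87 at 12 h and 1.62 at 24 h (adjusted p 0.00236 and 3.43e-06). Myc, a transcription factor that raises glycolytic genes in growing cells, fell by 1.75 at 12 h and 1.91 at 24 h, from 12.4 ± 0.859 and 10.9 ± 0.732 CPM with isotype to 3.64 ± 0.819 and 3.04 ± 0.997 with FcMR (adjusted p 0.000218 and 0.000129). Txnip, which encodes a glucose-responsive protein that restrains glucose uptake, was lower with FcMR at all 3 times, by −0.22, −0.67 and −0.92 on the log2 scale (adjusted p 0.0422, 3.5e-06 and 5.08e-08). Txnip and Hif1a were named after their values were seen. Vhl, which marks HIF for degradation, fell by 0.49 and Arrdc4, a relative of Txnip, rose by 0.41 at 4 h.

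In the pentose phosphate pathway, 1 of 9 genes fell at 4 h (Shpk, by 0.83), none was called at 12 h, and 1 rose at 24 h (G6pdx, the first enzyme of the pathway, by 0.34, adjusted p 0.0172). Among the glycogen genes, Phka2, a subunit of phosphorylase kinase, fell by 0.36 at 4 h. At 12 h Pygl, the liver-type glycogen phosphorylase, fell by 0.53 and Pgm1 rose by 0.47. At 24 h Pgm1 rose by 0.85 and Phka2 fell by 0.74. Among the remaining uptake and glycolysis genes, 3 of 16 fell at 4 h, among them Pdpr and Pdp1, which act on pyruvate dehydrogenase phosphatase activity, by 0.55 and 0.49. At 12 h Eno3, an enolase, fell by 1.06. At 24 h Ldhd, a D-lactate dehydrogenase, rose by 1.46 (adjusted p 0.0493) and Pcx, pyruvate carboxylase, by 1.3 (adjusted p 0.0305).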

How the data were processed

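Bone-marrow-derived macrophages were profiled by RNA-seq as 75 bp single-end reads, per the labels' protocols, in 21 libraries of 7 groups. Per the submitters' processing notes, CASAVA 1.8.2, kallisto 0.44.0 and DESeq2 were used with mm10 (GRCm38). How each was set is not given in the sources used here. The table that the authors deposited as raw holds estimated counts per gene, already whole numbers, so rounding changed none. The deposited normalized expression is a linear signal that equals these counts divided by a factor for each gene and library, whose geometric mean over libraries is 1 for each gene without a 0. It was used only as an alternative set of offsets.

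Gene IDs were matched without version to GENCODE M21 (GRCm38), which gave positions, the length and GC content of the longest basic protein-coding transcript, and overlaps. Promoters came from RefSeq. Genes were kept by filterByExpr (minimum 10 counts), scaled by TMM and tested with edgeR 4.0.16 (R 4.3.3) in a fit of all 21 libraries with a coefficient for each group. Genes were called at a Benjamini-Hochberg adjusted p under 0.05 over the 13468 genes tested. The plan assumed plain counts, and its test was kept for estimated counts. CPM are after TMM scaling, except for the marker sums and the floors of 3 counts, which use library totals. Shares within a family use counts per transcript length. Library totals ran from 5532225 to 66729533 counts. The floors of 3 counts cover counting error only, and reads carry no molecular identifiers. Standard errors and SDs hold the spread between libraries. The fit was also run on simulated counts, drawn with no GC tilt and with no library set apart from its group. That run therefore cannot show how these features affect the calls.

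Alternatives were RLE factors, the authors' factors, other filters, GC offsets (lowess, span 0.3), a replicate block, subsets of libraries, limma 3.58.1 voom and DESeq2 1.42.0. GC offsets on RLE factors were added after seeing the data. The members and lists were chosen with earlier results of these data known. Values of every library were given for the called members with the 3 highest and 3 lowest fold changes in FcMR against isotype at each time, and for Slc2a1, Hk2, Pfkfb3, Gapdh, Pkm, Ldha, Slc16a3, Pdk1, Pdk4 and Pdha1. Of other lists, up to 2 called genes with the largest change at each time were named, except 1 that is not reported here.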

Additional observations from a re-analysis of the deposited data

Results flagged for a closer look

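The effect of FcMR against isotype differed over 4, 12 and 24 h for 3 members in the joint edgeR test, which compares the effects themselves. Pfkp had an adjusted p of 0.000697, with log2 fold changes of 0.6, −0.09 and 0.14. It stayed called in all 18 fits that leave out a library of these times. Ldhb had an adjusted p of 0.00559, with log2 fold changes of 0.2, −1.29 and −1.16, and also stayed called in all 18. Aldoc had an adjusted p of 0.0266, with log2 fold changes of 0.25, −0.91 and −0.04, and stayed called in 12 of the 18, with adjusted p up to 0.0663. With GC offsets 9 members were called, where 23.9% of all genes were.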

How the results depend on the processing

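Counts of members called (6, 4 and 6 for FcMR against isotype at 4, 12 and 24 h, 11, 16 and 19 for isotype against untreated, and 3 in the joint test over time) moved by over 1.5 times as follows. GC offsets gave 14, 12 and 16 for FcMR, 21 for isotype at 4 h and 9 in the joint test. Of the 13468 genes tested, the main fit called 2390, 2169 and 2813 for FcMR. It called 4792 and 5602 for isotype at 4 and 12 h, and 1484 in the joint test. With GC offsets 3935, 3449 and 4262 genes were called for FcMR, 5895 for isotype at 4 h and 3214 in the joint test. GC offsets on RLE factors, chosen after seeing the data, gave 16, 10 and 16, 20 and 7. The genes called there, in the same order, were 3619, 3361 and 4088, 5791 and 2866 of 13468. Without both libraries out of title order, 15 were called for FcMR at 4 h and 6 in the joint test, beside 3898 and 2616 of 13797 genes. A fit of only the libraries compared gave 2 for FcMR at 4 h, 6 for isotype at 4 h and 25 for isotype at 12 h. Over all genes these fits called 868 of 11769, 2881 of 12475 and 7191 of 13317. DESeq2 gave 10 for FcMR at 4 h, where 2351 genes were called. The authors' factors gave 2 for FcMR at 12 h, where 1778 of 13468 genes were called. The remaining settings left these counts within 1.5 times, apart from the replicate block with GC offsets, given below. Leaving out a library gave 5 to 12, 2 to 4 and 3 to 8 calls for FcMR, 7 to 14, 12 to 14 and 13 to 16 for isotype, and 2 to 6 in the joint test. The extremes were 12 and 6 without isotype 4 h replicate 3, 2 without FcMR 12 h replicate 1 or isotype 12 h replicate 1, 3 without isotype 24 h replicate 1, and 7 without untreated replicate 1 or 2. The genes called in these fits were 3151 and 2294 of 14020, and, for FcMR at 12 h, 1768 of 13786 or 1570 of 13798. For FcMR at 24 h they were 2091 of 13960, and for isotype at 4 h 3891 of 13951 or 4276 of 13758. Where a group was left with 2 libraries, the fit pooled the spread over all groups.

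Aldoa and Pkm, not called for isotype against untreated in the comparisons named next (−0.21 and −0.03 for Aldoa at 4 and 24 h, −0.19 for Pkm at 4 h), took the opposite sign and were called in these settings: with GC offsets Aldoa was 0.22 at 4 h and 0.21 at 24 h and Pkm 0.31 at 4 h, with GC offsets and the replicate block these were 0.21, 0.21 and 0.31, and with GC offsets on RLE factors Aldoa was 0.25 at 24 h and Pkm 0.31 at 4 h. The cause was not tested.

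Replicate numbers are shared by the titles of all groups and by no other label. Deviations from the group means of same-numbered FcMR and isotype libraries had mean correlations of −0.071, 0.106 and 0.014 at 4, 12 and 24 h, too low to take the numbers as pairs. With the replicate block 8, 6, 5, 12, 16, 19 and 3 members were called, and with the block and GC offsets 16, 12 and 16 for FcMR, 23 for isotype at 4 h and 10 in the joint test. Of 13468 genes, the block called 2541, 2290, 2911, 5072, 5753, 5849 and 1620. The block with GC offsets called 4062, 3615 and 4377 for FcMR, 6052 for isotype at 4 h and 3477 in the joint test.

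At 4 h the split of all called genes moved with the scaling: 1161 higher and 1229 lower with TMM, 1412 and 839 with RLE, and 1243 and 608 with the authors' factors, where the members split 4 and 2, 5 and 2, and 6 and 1. With no filter on low counts 1331 genes were called higher and 439 lower.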
